A study of Mus musculus with 6 samples.

Results

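The genes described here encode the enzymes and carriers of 3 linked routes of glucose use, namely glycolysis, glycogen storage and the pentose phosphate pathway. They were 37 genes chosen by name, 22 of glycolysis, 8 of glycogen metabolism and 7 of the pentose phosphate pathway, of 18134 gene names in the deposited tables. All 37 were found, 33 on 1 row and 4 (Aldoa, Gapdh, Eno1 and Pfkfb2) on several rows, which were summed. RNA sequencing compared 3 Ufl1-KO libraries with 3 control libraries labelled NC, all from mouse embryonic fibroblasts (MEFs), connective tissue cells cultured from embryos. The Ufl1-KO genotype is named without the allele or the part of the gene altered. Ufl1 encodes the ligase that attaches the ubiquitin-like protein UFM1 to other proteins. The title of the series speaks of knockdown and of 24 hours of hypoxia, while the labels of the single libraries give the genotype and no oxygen condition, so only the genotypes were compared. No label names a cell line, clone or culture, so genotype and line cannot be told apart, and the p-values rest on a spread between libraries that may be technical.

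Glycolysis splits glucose into pyruvate, and lactate dehydrogenase turns pyruvate into lactate so that the route can go on without oxygen. Many of its genes, among them the glucose transporters, are textbook targets of the hypoxia-inducible factors (HIFs). Glucose 6-phosphate, made at the first step, can instead be stored as glycogen or enter the pentose phosphate pathway, whose oxidative branch makes NADPH and whose non-oxidative branch interconverts sugar phosphates. Several pentose phosphate genes are known targets of the antioxidant factor NRF2. Most steps have more than one gene, and the forms differ in their tissue and regulation.

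The pathways moved in different directions in the Ufl1-KO libraries. Among the 22 glycolysis genes the test called 13 lower and 2 higher, and 7 were not called. Of the 8 glycogen genes 6 fell, 0 rose and 2 did not pass. Of the 7 pentose phosphate genes 5 rose, 1 fell and 1 did not pass. The median log2 fold change of Ufl1-KO over NC was -0.56 for glycolysis, -0.51 for glycogen and 0.38 for the pentose phosphate pathway, and 0.0040 over all genes tested. The background was wide, since 33.4% of the 12224 genes tested were lower in Ufl1-KO and 33.3% were higher at an adjusted p of 0.05 (edgeR). The CPM values (counts scaled to equal library size) of the groups did not overlap for 16 of the glycolysis, 7 of the glycogen and 6 of the pentose phosphate genes, against 71.7% of all genes tested. No test of one pathway against another was made, and in bulk RNA fewer cells of a type and less RNA per cell cannot be told apart. Across 17 alternative fits, 17 members were lower and 6 were higher in every one.

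**Figure D1:**
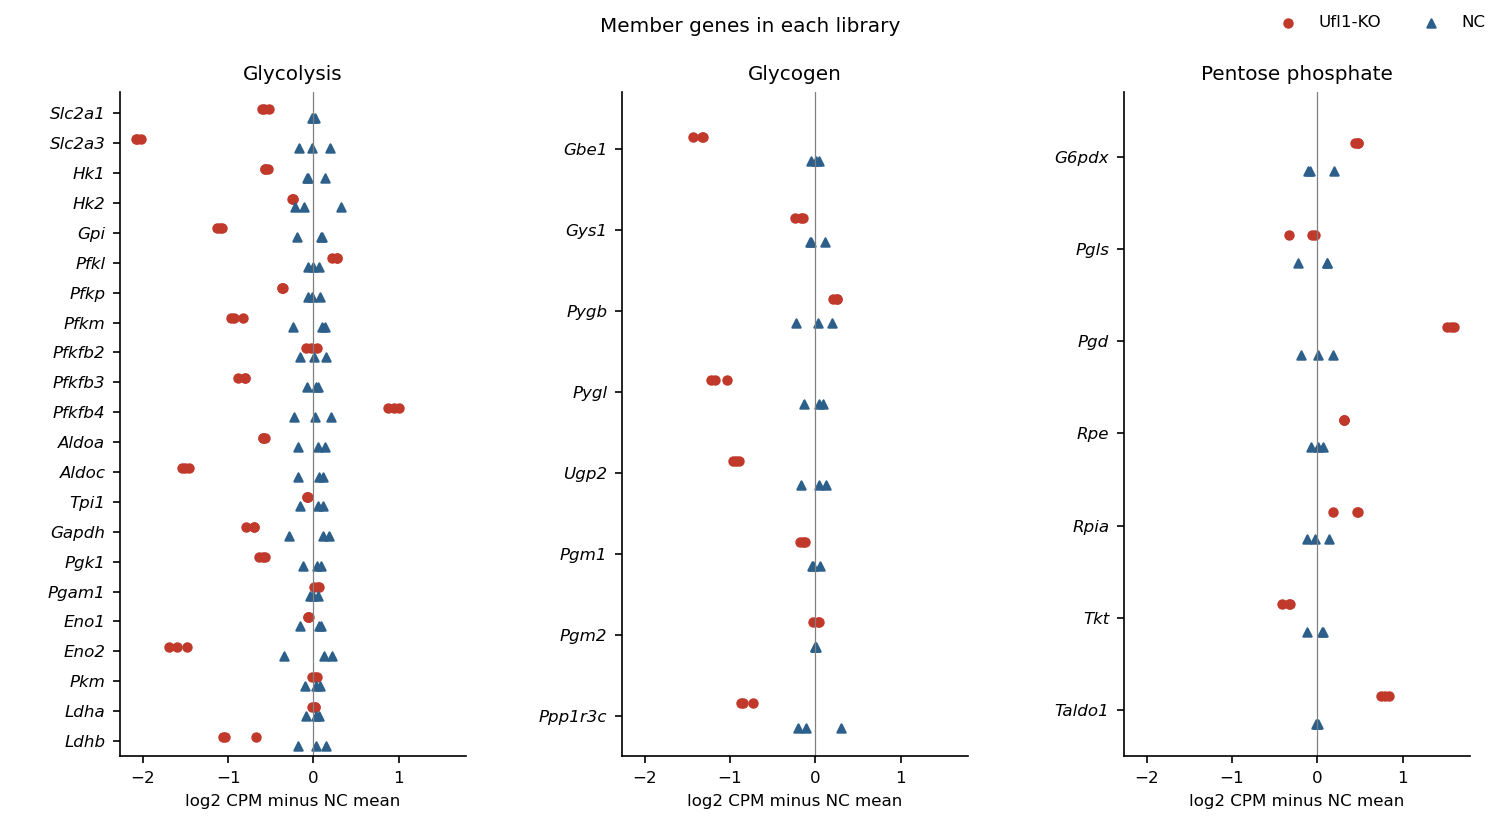
Each row is a member gene, and each point is 1 library. The x axis is log2 CPM minus the mean log2 CPM of the 3 NC libraries, with Ufl1-KO as red circles and NC as blue triangles. Most glycolysis and glycogen genes lie left of 0 in Ufl1-KO and most pentose phosphate genes lie right of it.

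Sequencing gave totals of 21831860, 17472432 and 20812728 counts for the Ufl1-KO replicates, against 17579470, 19779066 and 15887011 for the NC replicates. Ufl1 itself had 71, 69 and 102 counts in Ufl1-KO and 382, 497 and 396 in NC, with a log2 fold change of -2.75 (SE 0.15, edgeR adjusted p = 1.34e-06). Its CPM in Ufl1-KO was 14.9% of that in NC. NC replicate 1 stood apart from the other NC libraries, with a chi-square per gene of 29.8 and 22.2 against NC replicates 2 and 3, which gave 3.56 against each other. No pair of replicates was a copy, as the lowest chi-square per gene was 2.35. The 12 fibroblast markers summed to 13761 to 13849 CPM in Ufl1-KO and to 24304 to 29002 CPM in NC, and 11 of the 12 were abundant enough to test. Much of this sum was Fn1, with a mean of 11180 CPM over all libraries, and 2 of the 12 had a mean under 1 CPM. Epithelial markers summed to 30.2 to 33.1 CPM in Ufl1-KO and 50.1 to 57.5 CPM in NC, and leukocyte markers, led by Cd68 with Cd3e at 0, to 15.9 to 21.1 CPM in Ufl1-KO and 30.2 to 35.4 CPM in NC. The endothelial list gave 5.51 to 6.51 CPM in Ufl1-KO and 4.84 to 7.42 CPM in NC with Tie1 at 0, and the skeletal muscle list (Ckm and Actn2 at 0) and the pluripotency list (Zfp42 and Dppa5a at 0) summed to under 1 CPM in every library. The part of these marker differences in the results below was not tested.

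Glycolysis was by far the most abundant of the 3 routes, and its summed share of the library was lower in Ufl1-KO, with much of the difference in Gapdh. The 22 genes took 3.86, 3.76 and 3.83% of all counts in the Ufl1-KO libraries and 4.04, 4.65 and 4.6% in the NC libraries. NC replicate 1 was the lowest of the NC libraries and still above each Ufl1-KO library. The glycogen genes took 0.156, 0.152 and 0.157% of all counts in the Ufl1-KO libraries and 0.198, 0.191 and 0.187% in the NC libraries. The pentose phosphate genes took 0.0689, 0.0667 and 0.0695% of all counts in the Ufl1-KO libraries and 0.0529, 0.0538 and 0.0536% in the NC libraries, the only one of the 3 shares that was higher in Ufl1-KO. These shares are sums over chosen genes and carry no test. Gapdh alone took 0.97, 0.902 and 0.979% of all counts in the Ufl1-KO libraries and 1.15, 1.57 and 1.48% in the NC libraries, so it outweighed the whole glycogen and pentose phosphate lists in every library. Without Gapdh the glycolysis genes took 2.89, 2.86 and 2.85% of counts in the Ufl1-KO libraries, against 2.88, 3.09 and 3.12% in the NC libraries, and NC replicate 1 lay within the Ufl1-KO range. The mean shares of Pkm (0.589% in Ufl1-KO and 0.516% in NC), Ldha (0.338% in Ufl1-KO and 0.297% in NC), Eno1, Tpi1 and Pgam1 were higher in Ufl1-KO. Shares rest on library size alone, and on that scale the median log2 fold change over all genes tested was 0.18. Pkm (0.19) and Ldha (0.19) were close to that median, Pgam1 stood at 0.22, and Eno1 (0.12) and Tpi1 (0.11) lay below it. For Tpi1 the shares of the groups overlapped, with 0.2392% in Ufl1-KO replicate 2 and 0.2398% in NC replicate 2.

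**Figure D2:**
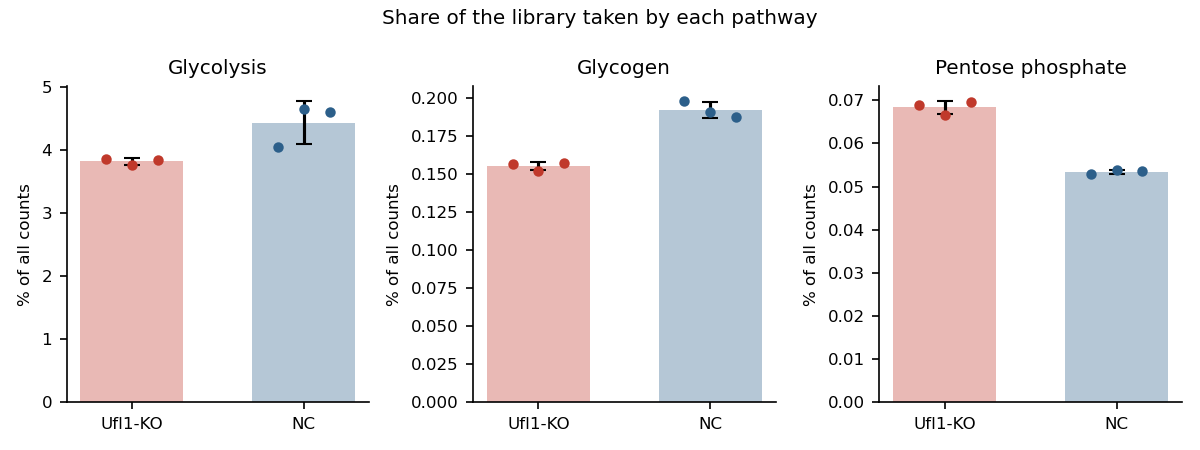
Bars give the mean share of all counts in a library taken by the genes of each pathway, in percent, with the SD as error bars and 1 point per library (n = 3 per group). The glycolysis and glycogen shares are lower in Ufl1-KO and the pentose phosphate share is higher, with no overlap of libraries.

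Glucose enters the fibroblast through facilitative transporters, and both member carriers fell. Slc2a1 (GLUT1), the widespread carrier of growing cells, had 1073, 1015 and 1033 CPM in Ufl1-KO, against 1562, 1529.8 and 1541 CPM in NC. Slc2a3 (GLUT3), a high-affinity carrier best known from neurons, had 42.7, 40.9 and 41.3 CPM in Ufl1-KO, against 198, 154 and 171 CPM in NC. The 3 Ufl1-KO libraries agreed closely for both genes and all lay below NC. Slc2a1 had a log2 fold change of -0.57 (SE 0.05, edgeR adjusted p = 2.05e-05) and Slc2a3 one of -2.06 (SE 0.10, edgeR adjusted p = 6e-07), the largest decrease of all 37 members. Slc2a3 made up 3.1% ± 0.0121 in Ufl1-KO and 8.02% ± 0.911 in NC of the summed FPKM of the pair. The log2 ratio of Slc2a3 to Slc2a1 within a library was -4.64 ± 0.01 in Ufl1-KO and -3.16 ± 0.17 in NC (SD, n = 3 each), a difference of -1.48.

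Hexokinase traps glucose in the cell as glucose 6-phosphate. Hk1, the constitutive form, had 863, 845 and 844 CPM in Ufl1-KO, against 1373, 1192 and 1187 CPM in NC, and fell, with a log2 fold change of -0.56 (SE 0.07, edgeR adjusted p = 0.000108). Hk2, the inducible form, had 229.7, 229 and 230.1 CPM in Ufl1-KO, against 342, 233 and 253 CPM in NC. The Hk2 values of the Ufl1-KO libraries were almost equal, while NC replicate 1 lay well above the other NC libraries, and Hk2 did not pass the test, with a log2 fold change of -0.27 (SE 0.12, edgeR adjusted p = 0.0868). Without NC replicate 2 it did, at -0.37 (edgeR adjusted p = 0.0204), and without NC replicate 1 the value was -0.07. Within a library, the log2 ratio of Hk2 to Hk1 was -1.89 ± 0.02 in Ufl1-KO and -2.20 ± 0.18 in NC (SD, n = 3 each), a difference of 0.31.

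Gpi converts glucose 6-phosphate to fructose 6-phosphate and stands where glycolysis parts from the pentose phosphate and glycogen routes. It had 1304, 1249 and 1279.6 CPM in Ufl1-KO, against 2406, 2949 and 2905 CPM in NC. The groups lay far apart, with a log2 fold change of -1.11 (SE 0.08, edgeR adjusted p = 5.52e-06), a larger decrease than that of Gapdh, Aldoa or Pgk1, the other abundant enzymes that fell.

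Phosphofructokinase commits sugar to glycolysis, and the 3 forms moved apart. Pfkl, the liver form, had 911, 916 and 879 CPM in Ufl1-KO, against 791, 722 and 753 CPM in NC, and rose with a log2 fold change of 0.26 (SE 0.06, edgeR adjusted p = 0.00349). Pfkp, the platelet form, had 666, 659 and 660.3 CPM in Ufl1-KO, against 901, 816 and 843 CPM in NC, and fell with a log2 fold change of -0.37 (SE 0.06, edgeR adjusted p = 0.000449). Pfkm, the muscle form, had 90.1, 88 and 96.6 CPM in Ufl1-KO, against 146, 185 and 188 CPM in NC, and fell with a log2 fold change of -0.92 (SE 0.10, edgeR adjusted p = 5.26e-05). In NC, Pfkp made up about as much FPKM as Pfkl, while in Ufl1-KO Pfkl led. The share of Pfkp in the pair was 39.3% ± 0.492 in Ufl1-KO and 50.6% ± 0.567 in NC and the log2 ratio of Pfkp to Pfkl was -0.45 ± 0.03 in Ufl1-KO and 0.18 ± 0.01 in NC (SD, n = 3 each), a difference of -0.62. For Pfkm over Pfkl the log2 ratio was -3.30 ± 0.10 in Ufl1-KO and -2.13 ± 0.26 in NC (SD, n = 3 each), a difference of -1.17.

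The bifunctional PFKFB enzymes set the level of fructose 2,6-bisphosphate, which switches phosphofructokinase on, and here too one form rose while another fell. Pfkfb3, the form with the strongest kinase activity, had 289.5, 291 and 275 CPM in Ufl1-KO, against 478, 516 and 523 CPM in NC, and fell with a log2 fold change of -0.83 (SE 0.06, edgeR adjusted p = 5.45e-06). Pfkfb4, a less abundant form, had 24, 25.2 and 26.4 CPM in Ufl1-KO, against 13.3, 11.2 and 15.1 CPM in NC, and rose with a log2 fold change of 0.93 (SE 0.12, edgeR adjusted p = 0.000122). Both genes are known HIF targets, and the groups did not overlap for either. Pfkfb2, the heart form, was low and did not pass the test, with 9.16, 9.6 and 8.79 CPM in Ufl1-KO, against 8.35, 9.4 and 10.4 CPM in NC. The log2 ratio of Pfkfb3 to Pfkfb4 was 3.50 ± 0.11 in Ufl1-KO and 5.26 ± 0.22 in NC (SD, n = 3 each), a difference of -1.76, the widest difference of the 11 pairs. Pfkfb3 nonetheless remained the main form, at 89% ± 0.789 in Ufl1-KO and 96.5% ± 0.516 in NC of the summed FPKM of both. For Pfkfb2 over Pfkfb4 the log2 ratio was -1.44 ± 0.11 in Ufl1-KO and -0.49 ± 0.22 in NC (SD, n = 3 each), a difference of -0.96.

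Aldolase and enolase each had a common form and a form best known from brain. Both aldolases fell, Aldoc by more than Aldoa, and of the enolases Eno2 fell while Eno1 did not pass. Aldoa had 1525, 1503 and 1495 CPM in Ufl1-KO, against 1988, 2347 and 2475 CPM in NC, and a log2 fold change of -0.59 (SE 0.08, edgeR adjusted p = 0.000195). Aldoc had 51.3, 50.2 and 53.3 CPM in Ufl1-KO, against 129, 158 and 153 CPM in NC, and a log2 fold change of -1.51 (SE 0.09, edgeR adjusted p = 1.67e-06). The NC spread of the aldolases came mostly from NC replicate 1, the lowest of the 3 for both. The log2 ratio of Aldoc to Aldoa, in which that library did not stand out, was -4.87 ± 0.05 in Ufl1-KO and -3.95 ± 0.06 in NC (SD, n = 3 each), a difference of -0.92.

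Eno1 had 4543, 4573 and 4527 CPM in Ufl1-KO, against 4249, 4965 and 5052 CPM in NC, with NC replicate 1 below and the other NC libraries above every Ufl1-KO library. It did not pass the test, with a log2 fold change of -0.06 (SE 0.07, edgeR adjusted p = 0.452), but without NC replicate 1 it did, at -0.13 (edgeR adjusted p = 0.000314), and with library size scaling its sign turned (0.12, edgeR adjusted p = 0.139). The second Eno1 row, with at most 106 counts in a library, has a length implied by its counts and FPKM of 1747 bases, which equals a transcript of the close copy Eno1b in GENCODE M21. Eno2, the neuronal enolase, had 40.5, 37.2 and 34.9 CPM in Ufl1-KO, against 89, 123 and 131 CPM in NC, and fell with a log2 fold change of -1.61 (SE 0.14, edgeR adjusted p = 1.38e-05). The log2 ratio of Eno2 to Eno1 was -6.92 ± 0.11 in Ufl1-KO and -5.39 ± 0.16 in NC (SD, n = 3 each), a difference of -1.53, and the share of Eno2 was 0.758% ± 0.0687 in Ufl1-KO and 2.06% ± 0.192 in NC of the summed FPKM of the pair.

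The abundant enzymes of the lower part of glycolysis did not move together. Gapdh, which oxidises glyceraldehyde 3-phosphate and is the most abundant member, had 9192, 8594 and 9185 CPM in Ufl1-KO, against 12183, 16832 and 16059.5 CPM in NC. Pgk1, which makes the first ATP of the route, had 2541, 2581 and 2459 CPM in Ufl1-KO, against 3511, 3912 and 4042 CPM in NC. Both were lower in every Ufl1-KO library than in any NC library, with log2 fold changes of -0.74 (SE 0.11, edgeR adjusted p = 0.000329) for Gapdh and -0.60 (SE 0.07, edgeR adjusted p = 5.69e-05) for Pgk1. Tpi1 (-0.07), Pgam1 (0.04), the pyruvate kinase gene Pkm (0.01) and Ldha (0.01) had log2 fold changes close to 0 and did not pass the test. Their CPM overlapped between the groups, as for Pkm with 5480.3 to 5663 CPM in Ufl1-KO and 5159.8 to 5806 CPM in NC. These calls depended on scaling. With library size alone Pgam1 (0.22), Pkm (0.19) and Ldha (0.19) were higher in Ufl1-KO, where the median over all genes stood at 0.18. Without NC replicate 1, Pgam1 rose by 0.08 (edgeR adjusted p = 0.0321) and Tpi1 fell by 0.14 (edgeR adjusted p = 0.000529), though with library size scaling of all libraries Tpi1 stood at 0.11 (edgeR adjusted p = 0.174).

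Lactate dehydrogenase is a tetramer of A and B subunits, and the A subunit gene was almost the sole source of its mRNA. Ldha, the muscle-type subunit, had 3230.1, 3227 and 3130.5 CPM in Ufl1-KO, against 2985, 3237 and 3319.8 CPM in NC, and the groups overlapped. Ldhb, the heart-type subunit, had 8.2, 8.34 and 10.7 CPM in Ufl1-KO, against 15.1, 19 and 17.4 CPM in NC, and fell with a log2 fold change of -0.91 (SE 0.14, edgeR adjusted p = 0.000404). Its share of the summed FPKM of the pair was 0.361% ± 0.049 in Ufl1-KO and 0.667% ± 0.0521 in NC. Ldhb over Ldha gave a log2 ratio of -8.45 ± 0.24 in Ufl1-KO and -7.53 ± 0.11 in NC (SD, n = 3 each), a difference of -0.92.

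Glycogen genes fell on the making side, and on the breaking side Pygl fell while Pygb did not pass. Gbe1, the branching enzyme, had 162, 149 and 161 CPM in Ufl1-KO, against 417, 405 and 388 CPM in NC, and fell the most of the 8, with a log2 fold change of -1.36 (SE 0.06, edgeR adjusted p = 5.83e-07). Ugp2, which makes the UDP-glucose that feeds glycogen synthase, had 161, 169 and 165 CPM in Ufl1-KO, against 279, 343 and 323 CPM in NC, and fell with a log2 fold change of -0.93 (SE 0.08, edgeR adjusted p = 1.37e-05). Ppp1r3c, a targeting subunit that brings protein phosphatase 1 to glycogen and so favours storage, had 39.2, 42.4 and 38.4 CPM in Ufl1-KO, against 86.9, 65.3 and 61.2 CPM in NC, and fell with a log2 fold change of -0.83 (SE 0.13, edgeR adjusted p = 0.000385). For these genes no Ufl1-KO library reached the lowest NC library. NC replicate 1 was the highest NC library for Ppp1r3c, and without it the value was -0.65.

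Gys1, the synthase itself, had a log2 fold change of only -0.19 (SE 0.07, edgeR adjusted p = 0.0322). Its call ended in 9 of the 17 alternatives, among them library size scaling (-0.01, edgeR adjusted p = 0.933) and the removal of any 1 Ufl1-KO library (edgeR adjusted p from 0.0646 to 0.135), and without NC replicate 1 it stood at -0.12. Pgm1, which joins glucose 1-phosphate to glucose 6-phosphate, had 476, 468 and 457 CPM in Ufl1-KO, against 538, 504 and 509 CPM in NC. Its log2 fold change was as slight, at -0.15 (SE 0.06, edgeR adjusted p = 0.0422), and its sign turned with library size scaling (0.03, edgeR adjusted p = 0.616) and in the FPKM fits. The call for Pgm1 also ended without any 1 library other than NC replicate 1 (edgeR adjusted p from 0.056 to 0.157). Pgm2, a less abundant gene of the same family, had 52.3, 50.2 and 52.4 CPM in Ufl1-KO, against 51.3, 50.8 and 51 CPM in NC, and did not pass. Annotations have used the names Pgm1 and Pgm2 for either gene. In the tables the lengths implied for Pgm1 (2371 bases) and Pgm2 (2369 bases at most) equal transcripts of the GENCODE M21 genes of the same names on chromosomes 4 and 5. Pgm2 over Pgm1 gave a log2 ratio of -3.18 ± 0.05 in Ufl1-KO and -3.34 ± 0.04 in NC (SD, n = 3 each), a difference of 0.16.

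Glycogen phosphorylase releases glucose 1-phosphate from glycogen, and its 2 forms changed places as the main form. Pygl, the liver form, had 49.2, 47.7 and 54.4 CPM in Ufl1-KO, against 102, 114 and 118 CPM in NC, and fell with a log2 fold change of -1.14 (SE 0.08, edgeR adjusted p = 5.45e-06). Pygb, the brain form, had 87.8, 87.7 and 84.6 CPM in Ufl1-KO, against 62.8, 74.8 and 84.1 CPM in NC, and did not pass, with a log2 fold change of 0.23 (SE 0.10, edgeR adjusted p = 0.0662). Pygb passed, as higher, without NC replicate 1 (0.14, edgeR adjusted p = 0.0353) or NC replicate 3 (0.34, edgeR adjusted p = 0.014), and with library size scaling (0.41, edgeR adjusted p = 0.00411). Pygl made up 44.6% ± 2.21 in Ufl1-KO and 67.7% ± 1.53 in NC of the summed FPKM of the pair. The log2 ratio of Pygl to Pygb was -0.78 ± 0.13 in Ufl1-KO and 0.60 ± 0.10 in NC (SD, n = 3 each), a difference of -1.38.

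**Figure D3:**
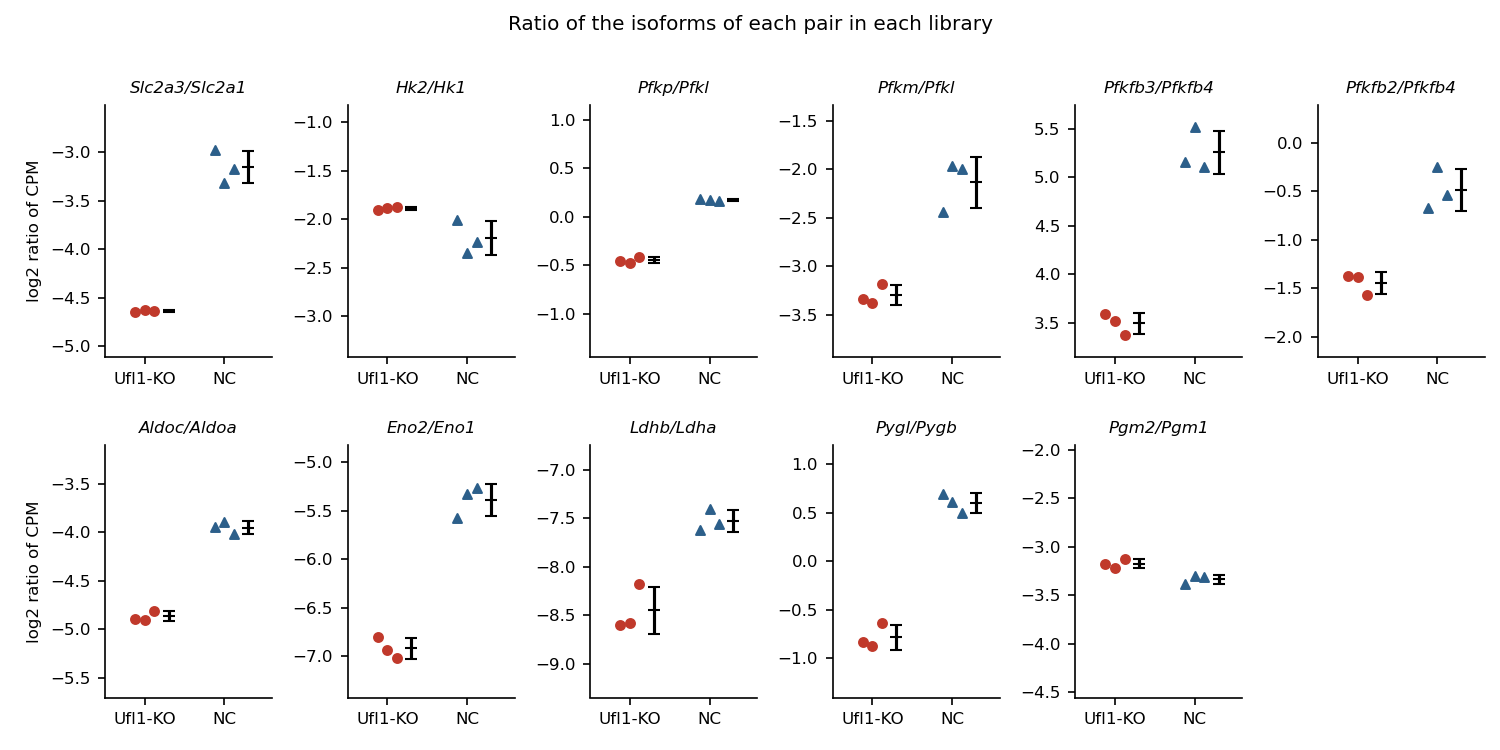
Each panel gives the log2 ratio of the CPM of 2 genes for the same step, with Ufl1-KO libraries as circles on the left and NC libraries as triangles on the right, and the mean ± SD (n = 3) beside them. All panels span the same number of log2 units. The Pfkfb3 to Pfkfb4 ratio differs most, by -1.76, and the Pgm2 to Pgm1 ratio least, by 0.16.

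A ratio within a library does not depend on how libraries are scaled, so the 11 pairs were compared this way. Among single genes the groups did not overlap for 71.7% of all those tested, and no such rate was computed for ratios of other genes. The values of the groups did not overlap for any of the 11 pairs. Each difference gave p = 0.1 in an exact two-sided permutation test over libraries, which is the smallest value that 3 libraries against 3 allow, and 0.1 after Benjamini-Hochberg adjustment over the 11 pairs. This test therefore cannot place any pair past 0.05. The ratio as written was lower in Ufl1-KO in 9 pairs. That count depends on which gene of a pair stands on top, and Pfkl and Pfkfb4 recur across pairs. Slc2a3, Pfkm, Aldoc, Eno2 and Ldhb, each the less abundant form of its pair, were lower relative to the main form. Pfkp, Pygl and Pfkfb2 were also lower relative to Pfkl, Pygb and Pfkfb4. Hk2, Pgm2 and Pfkfb4, also the less abundant forms of their pairs, were higher relative to Hk1, Pgm1 and Pfkfb3, and the Pfkfb4 pair had the widest difference of the 11.

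Pentose phosphate genes rose in both branches of the pathway. Of the oxidative branch, Pgd, the 6-phosphogluconate dehydrogenase that makes the second NADPH, had 135, 143 and 139 CPM in Ufl1-KO, against 53.4, 41 and 47 CPM in NC. G6pdx, the dehydrogenase that opens the pathway, had 111 ± 1.41 CPM in Ufl1-KO and 80.6 ± 9.88 CPM in NC (SD, n = 3 each). For both genes all Ufl1-KO libraries lay above all NC libraries. Pgd had a log2 fold change of 1.56 (SE 0.09, edgeR adjusted p = 2.1e-06), the largest increase of the 37 members, and G6pdx one of 0.46 (SE 0.09, edgeR adjusted p = 0.00143). Pgls, the lactonase between them, had 31.1 ± 3.46 CPM in Ufl1-KO and 34.3 ± 4.4 CPM in NC (SD, n = 3 each), and did not pass, with a log2 fold change of -0.14 (SE 0.12, edgeR adjusted p = 0.324), but without NC replicate 1 it fell by 0.23 (edgeR adjusted p = 0.0177), and with library size scaling it stood at 0.04 (edgeR adjusted p = 0.772).

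Of the non-oxidative branch, Taldo1, the transaldolase, had 50.5, 52.2 and 48.6 CPM in Ufl1-KO, against 29.3, 29 and 28.8 CPM in NC, and rose with a log2 fold change of 0.80 (SE 0.07, edgeR adjusted p = 1.82e-05). Rpe, the ribulose phosphate epimerase, had 37.5 ± 0.0483 CPM in Ufl1-KO and 30.2 ± 1.39 CPM in NC (SD, n = 3 each), and rose with a log2 fold change of 0.31 (SE 0.07, edgeR adjusted p = 0.00487). Rpia, the ribose phosphate isomerase, was low, at 9.83 ± 1.1 CPM in Ufl1-KO and 7.56 ± 0.678 CPM in NC (SD, n = 3 each), and rose with a log2 fold change of 0.38 (SE 0.13, edgeR adjusted p = 0.0303). The call for Rpia ended when Ufl1-KO replicate 1, Ufl1-KO replicate 3, NC replicate 2 or NC replicate 3 was left out, with edgeR adjusted p from 0.0738 to 0.113. Tkt, the transketolase, which shares the branch with Taldo1 and is the most abundant of the 7, went the other way. It had 268 ± 8.73 CPM in Ufl1-KO and 344 ± 23.7 CPM in NC (SD, n = 3 each), and fell with a log2 fold change of -0.36 (SE 0.07, edgeR adjusted p = 0.00128).

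**Figure D4:**
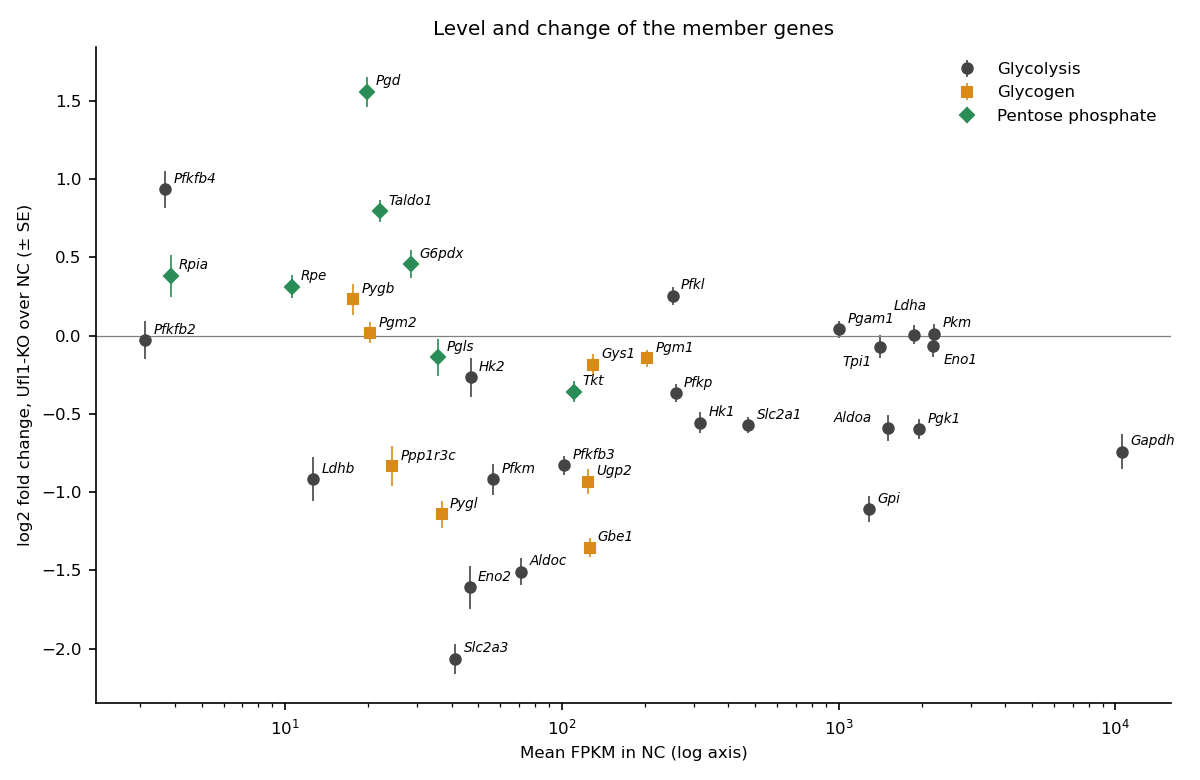
Each point is a member gene. The x axis is its mean FPKM in the NC libraries on a log axis, and the y axis is the log2 fold change of Ufl1-KO over NC with its SE. The pentose phosphate genes other than Tkt and Pgls lie above 0 at low to middle levels, and the most abundant glycolysis genes lie either near 0 (Pkm, Ldha, Eno1, Tpi1, Pgam1) or below it (Gapdh, Pgk1, Aldoa, Gpi).

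Level and change were weakly related. Across all 37 members, log2 mean FPKM in NC and log2 fold change had a Pearson r of -0.22 and a Spearman rho of -0.26. Across the 22 glycolysis genes, the values were 0.06 and 0.19, both a description over genes that share libraries. Among glycolysis genes the largest decreases (Slc2a3, Eno2 and Aldoc) and the largest increase (Pfkfb4) were all in genes of lower level than the main form of their step. The next largest decrease was that of the abundant gene Gpi (-1.11, mean of 1287 FPKM in NC). Pfkfb3, the main form of its step, also fell (-0.83).

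The promoters of the members were searched for short motifs of factors known for these pathways. RefSeq windows from 250 bases before to 50 after a gene start (GRCm38.p6) were matched for 36 of the 37 members, Gpi through its RefSeq name Gpi1. Slc2a3 was not used here. The motifs were ACGTG and GCGTG, the core of the HIF response element, the E-box CACGTG and TGACNNNGC, the core of the antioxidant response element, each on both strands. Every CACGTG also holds an ACGTG on each strand. After Slc2a3, the members with the largest changes in each direction are shown so that the letters can be read beside the values, with all 3 cores other than the E-box in capitals, as they stand on either strand. Each is written 5′ to 3′ on the strand of the gene.
Eno2, chr6:124769624-124769923, minus strand: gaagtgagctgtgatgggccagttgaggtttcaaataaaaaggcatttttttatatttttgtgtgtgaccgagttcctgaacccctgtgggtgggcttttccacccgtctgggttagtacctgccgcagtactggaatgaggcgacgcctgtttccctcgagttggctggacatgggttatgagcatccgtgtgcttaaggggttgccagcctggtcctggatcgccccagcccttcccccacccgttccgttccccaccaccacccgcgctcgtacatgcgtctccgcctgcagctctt
Aldoc, window 1, chr11:78322823-78323122, plus strand: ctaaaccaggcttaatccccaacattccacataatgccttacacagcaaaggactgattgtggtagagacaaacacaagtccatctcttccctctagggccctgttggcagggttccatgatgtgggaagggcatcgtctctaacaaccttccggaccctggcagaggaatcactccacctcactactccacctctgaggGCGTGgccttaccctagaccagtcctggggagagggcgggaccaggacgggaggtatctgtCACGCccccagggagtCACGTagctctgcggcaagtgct
Gbe1, chr16:70313699-70313998, plus strand: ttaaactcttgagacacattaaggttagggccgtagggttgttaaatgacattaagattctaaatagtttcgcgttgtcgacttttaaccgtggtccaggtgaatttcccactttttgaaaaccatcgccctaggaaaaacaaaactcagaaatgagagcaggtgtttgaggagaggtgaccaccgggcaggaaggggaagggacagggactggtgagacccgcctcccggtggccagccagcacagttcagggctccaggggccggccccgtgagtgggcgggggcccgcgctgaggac
Pygl, chr12:70227634-70227933, minus strand: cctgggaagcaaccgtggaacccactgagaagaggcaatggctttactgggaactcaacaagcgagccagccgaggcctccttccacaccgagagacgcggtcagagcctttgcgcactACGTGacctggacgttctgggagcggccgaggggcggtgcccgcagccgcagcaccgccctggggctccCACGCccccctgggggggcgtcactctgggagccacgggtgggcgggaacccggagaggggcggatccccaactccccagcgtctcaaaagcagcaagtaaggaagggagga
Pgd, window 1, chr4:149166656-149166955, minus strand: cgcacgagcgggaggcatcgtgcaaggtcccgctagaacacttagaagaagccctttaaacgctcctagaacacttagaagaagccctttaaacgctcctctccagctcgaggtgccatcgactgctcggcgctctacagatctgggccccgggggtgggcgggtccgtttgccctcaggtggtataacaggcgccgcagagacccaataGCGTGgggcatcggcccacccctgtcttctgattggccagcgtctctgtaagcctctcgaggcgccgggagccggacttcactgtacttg
Pgd, window 2, chr4:149166033-149166332, minus strand: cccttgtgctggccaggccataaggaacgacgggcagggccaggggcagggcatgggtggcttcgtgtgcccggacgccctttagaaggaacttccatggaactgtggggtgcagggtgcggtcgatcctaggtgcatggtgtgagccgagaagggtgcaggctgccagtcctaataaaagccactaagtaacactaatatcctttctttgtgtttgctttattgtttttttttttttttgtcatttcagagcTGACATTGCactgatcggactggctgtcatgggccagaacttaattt
Pfkfb4, chr9:108991652-108991951, plus strand: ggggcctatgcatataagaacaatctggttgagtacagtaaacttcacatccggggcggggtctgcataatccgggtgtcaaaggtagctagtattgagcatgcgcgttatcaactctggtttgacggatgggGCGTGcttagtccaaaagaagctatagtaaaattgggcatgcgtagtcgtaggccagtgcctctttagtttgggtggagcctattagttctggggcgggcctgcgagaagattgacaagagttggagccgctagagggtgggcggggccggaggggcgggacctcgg
Taldo1, chr7:141391910-141392209, plus strand: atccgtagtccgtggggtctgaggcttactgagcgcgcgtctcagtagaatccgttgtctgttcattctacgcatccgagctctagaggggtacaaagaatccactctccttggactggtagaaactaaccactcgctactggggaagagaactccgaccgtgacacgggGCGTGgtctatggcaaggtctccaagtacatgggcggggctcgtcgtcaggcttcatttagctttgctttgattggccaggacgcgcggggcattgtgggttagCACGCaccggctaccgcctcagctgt
Of the genes that fell, the first of the 2 windows of Aldoc and the window of Pygl hold both hypoxia cores and those of Eno2 and Gbe1, which also fell, hold neither. Of the genes that rose, Pfkfb4, Taldo1 and the first window of Pgd hold GCGTG, and the second window of Pgd holds TGACATTGC, a match to the antioxidant core. This match starts 3 bases after the annotated start of that window. The whole window lies inside the Pgd gene of GENCODE M21 (chr4:149149991-149166771), so the match is in transcribed sequence and not upstream of the gene. The first window of Pgd holds no match to that core. Each match is a description of letters and not of a bound site.

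Over all matched members, ACGTG stood in at least 1 window of 20 of 36 members (55.6%), against 29.7% of the 9255 tested genes with a window and 21.8% of all 27025 genes in the table. By direction it was in 12 of 19 members that fell, 1 of 7 that rose and 7 of 10 that did not pass. GCGTG stood in 24 of 36 members (66.7%), against 57.5% of tested genes and 35.2% of all genes, and in 12 of 19 that fell, 6 of 7 that rose and 6 of 10 that did not pass. CACGTG stood in 5 of 36 members (13.9%), against 11.9% of tested genes and 8.09% of all genes. TGACNNNGC stood in 5 of 36 members (13.9%), against 17.0% of tested genes and 14.0% of all genes, and 2 of those 5, G6pdx and Pgd, were pentose phosphate genes. The only match of Pgd is the one in its second window, which lies inside the gene and not upstream of it. Members with several gene starts have several windows, and counted by window ACGTG was in 46.2% of 52 member windows and in 25.4% of the windows of tested genes. No test was run on these counts.

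The other genes of these pathways, 69 names in all with 5 glucose-sensing genes among them, were listed by their known roles. Gyg and Prps1l1 were not found among the deposited names, and 46 of the 69 had enough counts to test. Of these 46, 17 fell (37.0%) and 9 rose (19.6%), while 20 were not called, against 33.4% lower and 33.3% higher over all genes. Their median log2 fold change was -0.13. With library size scaling 14 fell and 16 rose, and the median turned to 0.045. Other glycogen genes gave 8 lower (47.1%) and 2 higher (11.8%) of 17, and with library size scaling 7 lower and 5 higher. Other glycolysis genes gave 7 lower (36.8%) and 4 higher (21.1%) of 19, and with library size scaling 6 lower and 6 higher. Other pentose phosphate genes gave 1 lower (16.7%) and 2 higher (33.3%) of 6, and with library size scaling 1 lower and 4 higher. Glucose-sensing genes gave 1 lower and 1 higher of 4 (25% each), and with library size scaling 0 lower and 1 higher.

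Among transporters, Slc2a8, an intracellular glucose transporter, had 18.4 ± 0.877 CPM in Ufl1-KO and 49.3 ± 3.98 CPM in NC (SD, n = 3 each), and fell with a log2 fold change of -1.42 (SE 0.09, edgeR adjusted p = 2.49e-06). Slc2a4 (GLUT4), the insulin-responsive carrier, had 0.821 ± 0.0531 CPM in Ufl1-KO and 2.01 ± 0.337 CPM in NC (SD, n = 3 each), and fell with a log2 fold change of -1.30 (SE 0.24, edgeR adjusted p = 0.00121). Slc2a4 was low, with 19, 16 and 17 counts in Ufl1-KO and 29, 44 and 28 in NC. Its FPKM was 0.673, 0.545 and 0.627 in Ufl1-KO, against 0.728, 1.999 and 0.789 in NC, where NC replicate 2 set most of the difference. Bsg, the basigin chaperone that brings lactate carriers to the cell surface, had 4642 ± 192 CPM in Ufl1-KO and 11275 ± 847 CPM in NC (SD, n = 3 each), and fell with a log2 fold change of -1.28 (SE 0.07, edgeR adjusted p = 1.34e-06). Basigin was among the most abundant mRNAs considered here, and all Ufl1-KO libraries lay below all NC libraries. Of the lactate carriers themselves, named after their values were seen, Slc16a3 (MCT4) had 737, 743 and 716 CPM in Ufl1-KO, against 549.6, 294 and 322 CPM in NC, and rose with a log2 fold change of 0.91 (SE 0.20, edgeR adjusted p = 0.00297). NC replicate 1 was its highest NC library, and without it the value was 1.26. Slc16a1 (MCT1) had 342 ± 5.03 CPM in Ufl1-KO and 614 ± 83.7 CPM in NC (SD, n = 3 each), and fell with a log2 fold change of -0.84 (SE 0.09, edgeR adjusted p = 4.81e-05).

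Several less abundant glycolysis genes rose at least 2-fold. Eno3, the muscle enolase, had 45.8 ± 3.34 CPM in Ufl1-KO and 16.5 ± 1.65 CPM in NC (SD, n = 3 each), and rose with a log2 fold change of 1.47 (SE 0.10, edgeR adjusted p = 3.64e-06), so that of the 3 enolase genes tested Eno2 fell, Eno3 rose and Eno1 did not pass. Tigar, a phosphatase that lowers fructose 2,6-bisphosphate and favours the pentose phosphate pathway, had 15.2 ± 1.69 CPM in Ufl1-KO and 5.21 ± 2.86 CPM in NC (SD, n = 3 each), and rose with a log2 fold change of 1.54 (SE 0.29, edgeR adjusted p = 0.00132). NC replicate 1 was the highest NC library for Tigar, and without it the value was 2.08 (edgeR adjusted p = 4.38e-11). Pfkfb1, the liver form of the PFKFB enzymes, had 4.91 ± 0.784 CPM in Ufl1-KO and 2.02 ± 0.438 CPM in NC (SD, n = 3 each), and rose with a log2 fold change of 1.27 (SE 0.21, edgeR adjusted p = 0.000682).

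Of the other glycogen genes, Stbd1, a glycogen-binding protein that links glycogen to autophagy, had 62.9 ± 4.48 CPM in Ufl1-KO and 302 ± 51.9 CPM in NC (SD, n = 3 each), and fell with a log2 fold change of -2.26 (SE 0.12, edgeR adjusted p = 1.34e-06). Pgm5, a relative of phosphoglucomutase found at adhesion sites and thought to lack its activity, had 0.657 ± 0.297 CPM in Ufl1-KO and 10.7 ± 1.45 CPM in NC (SD, n = 3 each), and fell with a log2 fold change of -4.00 (SE 0.26, edgeR adjusted p = 3.19e-06). The groups did not overlap for either. The glycogen genes of this list that rose were Phka1 (0.41, edgeR adjusted p = 0.00355), a regulatory subunit of phosphorylase kinase, and the phosphoglucomutase relative Pgm2l1 (0.39, edgeR adjusted p = 0.00792), both named after their values were seen. Genes that fell less than 2-fold, also named after their values were seen, included the glycogenin gene Gyg1 (-0.94), which primes glycogen, the lysosomal glucosidase gene Gaa (-0.84) and the laforin gene Epm2a (-0.95).

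**Figure D5:**
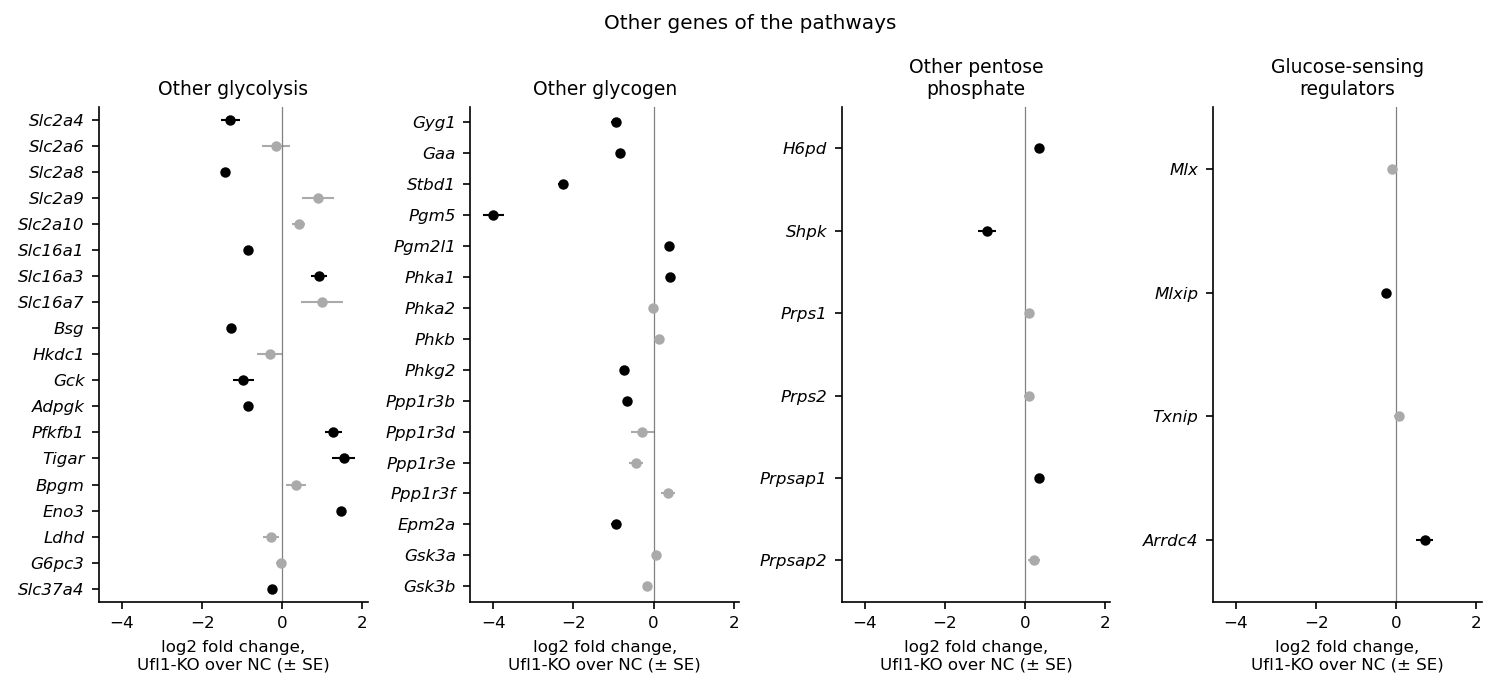
Points give the log2 fold change of Ufl1-KO over NC with its SE for the other tested genes of the pathways, 1 of which is not drawn, in black where the edgeR adjusted p was under 0.05 and in grey elsewhere. Pgm5 and Stbd1 lie furthest left, and Tigar and Eno3 furthest right.

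NC replicate 1 bore on some members more than on others. Relative to the mean of NC replicates 2 and 3 it was higher for 8 of 22 glycolysis genes, 5 of 8 glycogen genes and 5 of 7 pentose phosphate genes, with median log2 differences of -0.16, 0.04 and 0.02, and -0.0042 over all genes tested. The extremes were Eno2 (-0.51), Gapdh (-0.43), Hk2 (0.49) and Ppp1r3c (0.46). Without that library the median log2 fold change was -0.51 for glycolysis, -0.38 for glycogen and 0.47 for the pentose phosphate pathway, so the contrast between the pathways kept its direction.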

How the data were processed

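The authors deposited a table of estimated counts and a table of FPKM (fragments scaled to gene length and library size) for 6 libraries. The submitters' processing notes name fastp 0.20.1, STAR 2.7.7a and featureCounts 2.0.0, the mouse build mm10 and human builds, with no role. No annotation or strand setting is stated in the labels, so antisense reads cannot be told apart. In each library 7.29% to 8.09% of the deposited counts were not whole (tolerance 0.001), and counts were rounded. Rows naming no gene (1225 of 22274 rows, 0.594% to 0.661% of counts) were left out, and rows of 1 name were summed, for 18134 names.

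Ufl1-KO was compared with NC by edgeR 4.0.16 (R 4.3.3), with TMM scaling, filterByExpr, the quasi-likelihood test and Benjamini-Hochberg adjustment over 12224 genes at 0.05. The procedure was also run on simulated counts in which few genes changed, balanced in direction. Many more genes were called in these data, so that run does not check the scaling or the error rate here. CPM used TMM library sizes. Pair ratios were log2 of CPM + 0.1 and were tested by exact permutation. Alternatives used DESeq2 1.42.0, limma 3.58.1 on log2(FPKM + 1) or log2(FPKM + 0.1), which understates changes of low genes, other filters and scalings, and each library left out.

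All members are named. Libraries are given one by one for pair members and for members past the threshold and 1.5-fold, and other pathway genes are named when past the threshold and 2-fold. Members and lists were chosen with earlier results of these data known. A gene of the other glycogen list is counted there and not reported here.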

Additional observations from a re-analysis of the deposited data

How the results depend on the processing

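Over 17 alternative fits, 559 of 629 values of single members kept their sign and their side of the threshold, and 579 kept their side. The sign turned in 24 values, 4 of them of Pgm1 and 20 of 6 members that did not pass (Eno1, Tpi1, Pgls, Pfkfb2, Pkm and Ldha), and none of the 24 passed the threshold with the other sign. None of 110 alternative values of the pair ratios changed sign, and 108 moved by less than the spread between replicates. Some of the 110 could not move. These are the replicate block values, and those from the row with the highest mean count where both genes have counts on 1 row. The 2 that moved more came from FPKM, with -0.66 for Pfkp to Pfkl (-0.62 from CPM) and -0.98 for Aldoc to Aldoa (-0.92 from CPM). With library size alone, which moves the median of all genes to 0.18, 5 glycolysis and 2 glycogen members and 16 other pathway genes were higher in Ufl1-KO, against 2, 0 and 9. Limma on log2(FPKM + 1) and on log2(FPKM + 0.1) gave 5 and 2 as well, and limma on log2(FPKM + 1) with no filter gave 2 higher glycogen members and 2692 genes lower, against 4088. Gapdh did not pass in that last fit (-0.55, limma adjusted p = 0.433). Pgm1 (-0.15) reversed to 0.0327 with library size, 0.0335 with log2(FPKM + 1) with and without the filter, and 0.0336 with log2(FPKM + 0.1). Leaving out 1 library gave 0 to 1 higher glycogen members (1 without NC replicate 1 or NC replicate 3) and 1 to 2 lower pentose phosphate members (2 without NC replicate 1). The cause was not tested. Libraries with the same replicate number did not deviate together (correlations of 0.03, -0.21 and 0.03). What the number stands for is not stated in the labels, and a shared preparation was not tested. With the replicate block, 3892 genes were higher and 3910 lower, and 4 glycogen members were lower, as Gys1 (-0.18, edgeR adjusted p = 0.0644) and Pgm1 (-0.15, edgeR adjusted p = 0.114) did not pass. The pair ratios must have the same mean difference with the replicate block, because the mean of the differences equals the difference of the means, as for Pfkfb3 to Pfkfb4 (-1.76). The largest SEs among members were those of Ldhb (0.14), Eno2 (0.14) and Rpia (0.13).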
